A study of Mus musculus with 15 samples.

Results

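Dividing cells use one set of genes to copy their DNA and another to separate the copies, and transcripts of 48 such genes were followed here in cultured mouse dendritic cells (DC), out of 8251 genes measured. The starting list held 53 genes: 25 of DNA replication, 8 regulators that act between the phases and 20 of mitosis. A gene was taken where the platform annotation gave a probe set its symbol alone, and where several probe sets did, the one with the highest mean over all arrays was used. This gave 23 replication genes, 8 regulators and 17 mitosis genes, while Tyms, Pole, Ccnb1, Cdc25b and Bub1b were not matched and are not analysed here.

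The DC came from the bone marrow of female mice of the NOD strain, which develops autoimmune diabetes, at 6 to 8 weeks of age. Marrow cells grew for 4 days with 1 ng/ml GM-CSF and were purified on a 16% metrizamide density gradient (GM DC), or grew with 1 ng/ml GM-CSF plus 1 ng/ml interleukin-4 and were purified on a 14.5% gradient (GM4 DC). Both kinds then received LPS at 10 µg/ml, a bacterial activator of Tlr4, together with interferon-γ at 50 ng/ml, and RNA was prepared before the stimulus (0 h) and 6 and 20 h into it. Expression was measured on 15 Affymetrix arrays, with n of 3, 2 and 2 GM arrays and 3, 3 and 2 GM4 arrays at 0, 6 and 20 h. The series describes 3 biological replicates, of which some RNA was not good enough to use. The titles of the 0 h GM4 samples give 0 h while their source names speak of exposure to the stimulus, and the protocol of GM4 0 h replicate 1 names the cytokines without doses or gradient. A gradient was the only purification named, so DC grown from marrow may be mixed with other cells.

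A cell prepares to copy its DNA by loading the ring-shaped MCM helicase at replication origins, and in S phase primase, polymerases, a sliding clamp and a supply of nucleotides carry out the copying. Many of these genes are switched by E2F transcription factors. Genes of the following G2 phase and of mitosis are switched later, through DNA elements called CHR and CCAAT, to which complexes with B-Myb and FoxM1 contribute. Progenitors in marrow cultures with GM-CSF divide, and DC that have matured after a microbial stimulus are known as largely non-dividing cells.

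Signals are linear values scaled per array. Each change below is taken on log2(signal + 16), a scale that shrinks the changes of dim probe sets, and the value behind ± is the standard error from limma. A gene was called higher or lower where limma's Benjamini-Hochberg adjusted p over 12422 probe sets was under 0.05. Median signal was between 40.1 and 48.5 per array, between 29.7% and 35.3% of probe sets had a signal below 16, and replicates of a group correlated at 0.966 or above. The DC genes Itgax and H2-Aa were present in both kinds of cells at 0 h, Itgax at 1153 ± 153 (SD, n = 3) in GM and 1027 ± 232 (SD, n = 3) in GM4 DC, and H2-Aa at 4231 ± 506 (SD, n = 3) and 4474 ± 946 (SD, n = 3). Most of the 16 DC genes listed were higher in GM4 than in GM DC at 0 h, as described below. Markers of T and NK cells summed to 129 to 385 over 11 genes and those of mast cells and basophils to 157 to 341 over 9 genes on any array. Sums were larger for neutrophils and granule precursors (4034 to 15595 over 15 genes) and for monocytes and macrophages (4616 to 24805 over 10 genes). No probe set was listed at 0. One array stood apart: GM4 0 h replicate 3 gave the lowest signal of its group for 45 of the 48 genes. At 6 h, GM replicate 1 was the lower of its pair for 33 genes and GM4 replicate 1 the lowest of its group for 35.

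Promoters were available for 40 of the 48 genes in RefSeq windows of GRCm38.p6, from 250 bases before to 50 after the start of the gene, and were searched on both strands. Those of Mcm4, Prim2, Ccna2, Ccne2, Cdc25c, Aurkb, Kif20a and Stmn1 were not analysed here. An E2F site was searched as TTCCCGC first, with the forms TTCGCGC as second, TTGCCGC next to it and TTGGCGC last. It was found for 13 of 21 replication genes (61.9%) and 3 of 13 mitosis genes (23.1%), beside 10.9% of the 27025 genes with a window. The CHR element (TTTGAA) was found for 4 of 21 replication genes (19.0%) and 9 of 13 mitosis genes (69.2%), beside 20.2% of all genes. The CCAAT box was found for 66.7% of the replication and 76.9% of the mitosis genes, beside 41.1% of all. Read on the opposite strand, TTGGCGC can overlap a CCAAT box, and no match says only that these letters are not in the window.

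Stretches before the start are shown for 6 genes whose transcripts are described below, to set replication promoters beside mitosis promoters. Letters are 5′ to 3′ along the gene, and capitals mark every match to the E2F, CHR and CCAAT motifs, read on either strand (TTCAAA is CHR and ATTGG is CCAAT on the opposite strand). Mcm5 (chr8:75109329-75109508, plus strand) and Rrm1 (chr7:102441575-102441694, plus strand) are replication genes with at least 1 E2F site and no CHR element in the stretch shown. Cdk1 (chr10:69352913-69353102, minus strand) has both kinds, Cdc20 (chr4:118437344-118437453, minus strand) and Kif11 (chr19:37376282-37376381, plus strand) are mitosis genes with a CHR element within the stretch, and Cks1b (chr3:89418292-89418411, minus strand) is a regulator with CHR elements.
Mcm5: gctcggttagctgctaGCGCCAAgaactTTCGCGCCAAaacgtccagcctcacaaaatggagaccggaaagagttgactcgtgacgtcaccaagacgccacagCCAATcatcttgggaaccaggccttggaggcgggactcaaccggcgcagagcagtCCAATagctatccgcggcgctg
Rrm1: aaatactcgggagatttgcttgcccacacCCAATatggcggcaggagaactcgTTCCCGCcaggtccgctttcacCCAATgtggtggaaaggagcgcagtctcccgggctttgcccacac
Cdk1: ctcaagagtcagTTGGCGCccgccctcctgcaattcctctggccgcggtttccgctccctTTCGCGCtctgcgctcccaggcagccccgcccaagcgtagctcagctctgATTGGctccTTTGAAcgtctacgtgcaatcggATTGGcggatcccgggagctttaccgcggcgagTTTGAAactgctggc
Cdc20: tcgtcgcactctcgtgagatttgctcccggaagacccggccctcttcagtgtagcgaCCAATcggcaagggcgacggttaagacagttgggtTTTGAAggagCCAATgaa
Kif11: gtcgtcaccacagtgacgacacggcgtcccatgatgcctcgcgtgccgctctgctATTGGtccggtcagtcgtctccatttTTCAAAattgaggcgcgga
Cks1b: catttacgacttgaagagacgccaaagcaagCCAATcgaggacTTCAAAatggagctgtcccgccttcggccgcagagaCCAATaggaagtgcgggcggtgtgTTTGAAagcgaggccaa

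**Figure D1:**
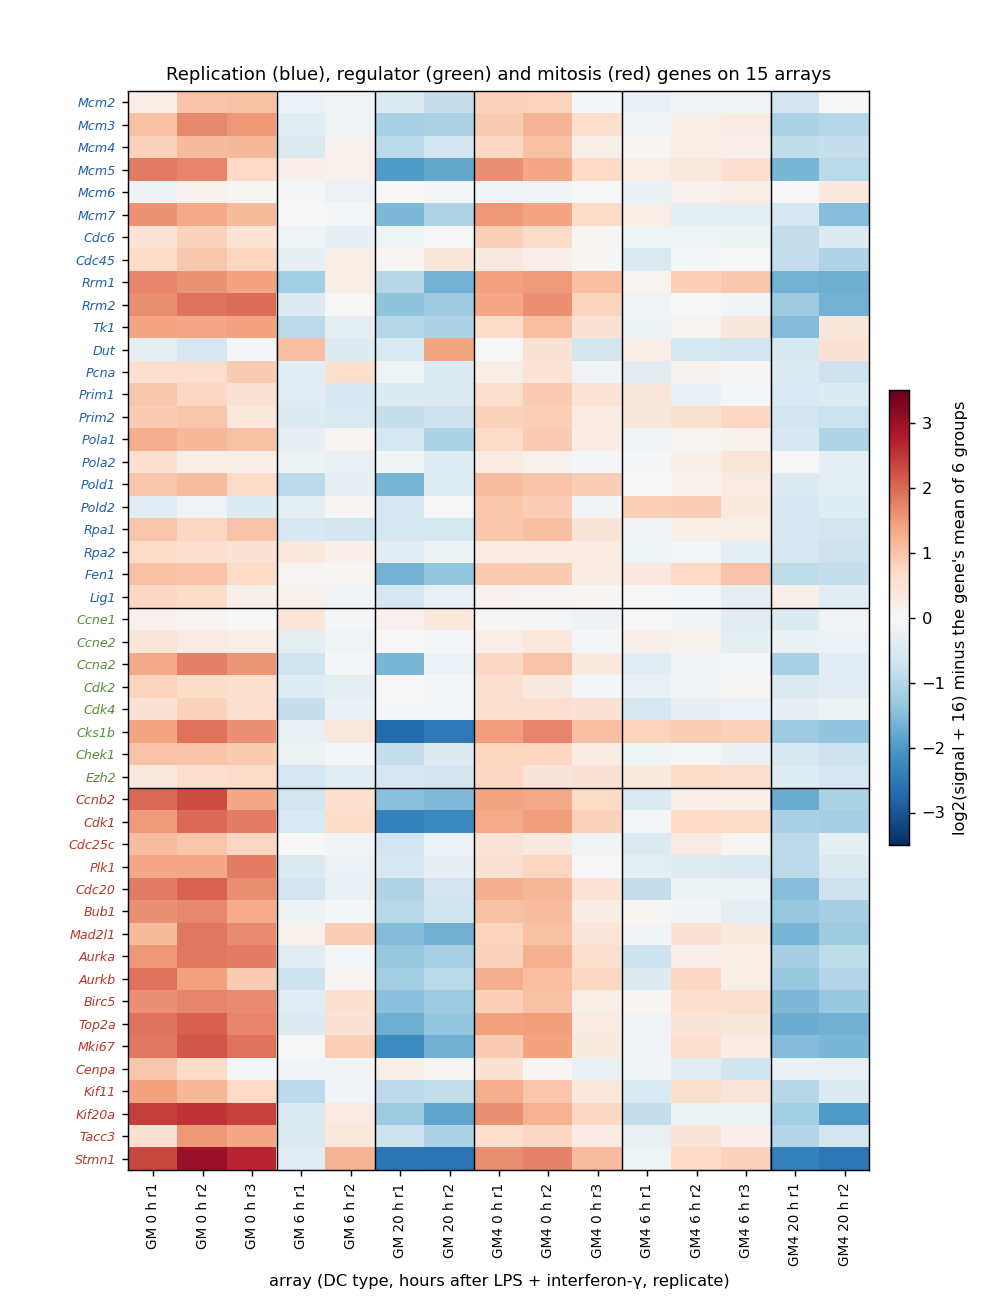
Heat map of the 48 genes (rows, coloured by group) on the 15 arrays (columns); colour is log2(signal + 16) minus the gene's mean over the 6 group means. Most rows pass from red at 0 h to blue at 20 h in both DC types, and the mitosis rows are paler in GM4 than in GM DC at 0 h.

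Transcripts of most replication and mitosis genes fell after stimulation in both DC types, and before it 9 of the 17 mitosis genes were lower in GM4 than in GM DC. At 20 h against 0 h, 40 of 48 genes were lower and 0 higher in GM DC, where 16% of all probe sets were lower and 11% higher. The same comparison in GM4 DC also gave 40 lower and 0 higher, beside 12.3% and 8.71% of all probe sets. The calls had 37 genes in common: 15 of replication, 6 regulators and 16 of mitosis. At an unadjusted limma p under 0.05, 42 genes were lower and 0 higher in each DC type. The share of all probe sets at that unadjusted threshold was not counted, here or for the unadjusted counts below. RNA was taken from all cells of each gradient-purified culture, so fewer dividing cells and less RNA per cell cannot be told apart.

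By 20 h the median fall was larger for mitosis than for replication genes, a difference given as a description. The mitosis genes started brighter, with a mean log2(signal + 16) at 0 h of 8.11 against 7.18 in GM and 7.32 against 6.97 in GM4 DC. In GM DC 2 of 23 replication genes and 0 of 17 mitosis genes had a mean signal below 16 at 0 h. At 20 h these were 6 and 8. The part of starting brightness and of this floor in the difference was not tested. The median log2 change over the 17 mitosis genes was -2.96 in GM and -2.14 in GM4 DC, and over the 23 replication genes -1.51 and -1.29, while the median over all probe sets was 0.01 and 0.04. The mean of the mitosis genes minus that of the replication genes, on the log2 scale, was 0.87 to 1.02 on the GM arrays at 0 h and 0.24 to 0.43 on the GM4 arrays. At 20 h it was -0.45 to -0.38 in GM and -0.46 to -0.34 in GM4 DC. Its level mixes different probe sets and means nothing by itself, but it was lower on every 20 h array than on every 0 h array, and at 0 h the arrays of the 2 DC types did not overlap. At 6 h it ranged from -0.02 to 0.53 in GM and from -0.21 to 0.27 in GM4 DC, with replicate 1 the lowest in each.

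**Figure D2:**
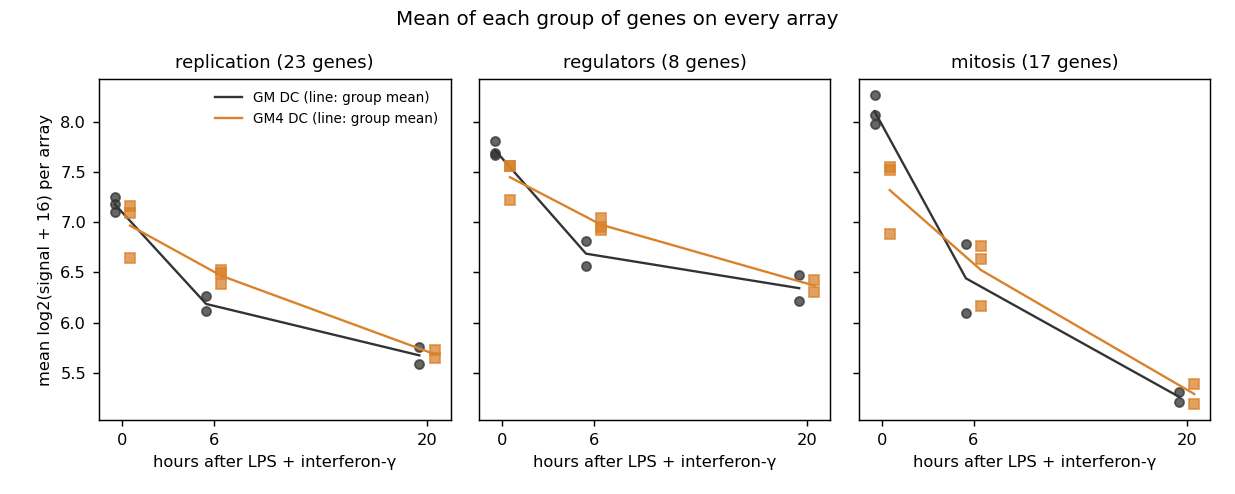
Mean log2(signal + 16) of the replication, regulator and mitosis genes on every array (points) against hours after stimulation, with lines through the group means of GM and GM4 DC. At 0 h the mitosis means of the GM arrays, 7.98 to 8.27, lie above those of the GM4 arrays, 6.89 to 7.55, and by 20 h both DC types are between 5.18 and 5.39.

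More genes were called lower at 6 h in GM than in GM4 DC, while the test of the difference in response called 1 of the 48. At 6 h against 0 h, 40 of 48 genes were lower and 0 higher in GM DC (15.7% and 8.52% of all probe sets), with 43 lower and 0 higher at an unadjusted limma p under 0.05. In GM4 DC 15 were lower and 0 higher (10% and 5.84% of all), with 30 lower and 0 higher unadjusted. The 40 genes lower at 20 h in GM DC had reached a median of 65.4% of their 20 h log2 change at 6 h, 65.2% for replication and 61.4% for mitosis genes. For the 40 in GM4 DC the median was 39.97%, with 39.9% for replication and 36.0% for mitosis genes. With each array left out in turn the median was 59.0% to 72.7% in GM and 31.9% to 46.6% in GM4 DC. For the mitosis genes it was 46.8% in GM DC without 6 h replicate 1, and 23.3% to 46.1% over the GM4 settings. These settings were chosen after seeing the data. Both changes of a DC type use the same 0 h arrays. The genes were selected by the same 20 h change that divides the share, and the sets of the 2 DC types have 37 genes in common. Between 6 and 20 h, 15 genes fell and 0 rose in GM DC (7.75% and 8.7% of all), with 21 and 1 unadjusted, and 23 fell and 0 rose in GM4 DC (6.01% and 5.68% of all), with 32 and 0 unadjusted. Without GM 6 h replicate 1 the GM count at 6 h was 26, and without GM4 0 h replicates 1, 2 and 3 the GM4 count was 9, 6 and 22. The 6 to 20 h count in GM DC was 8 without 6 h replicate 2 and 9 without 20 h replicate 1, and in GM4 DC 15 and 14 without 20 h replicates 1 and 2.

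**Figure D3:**
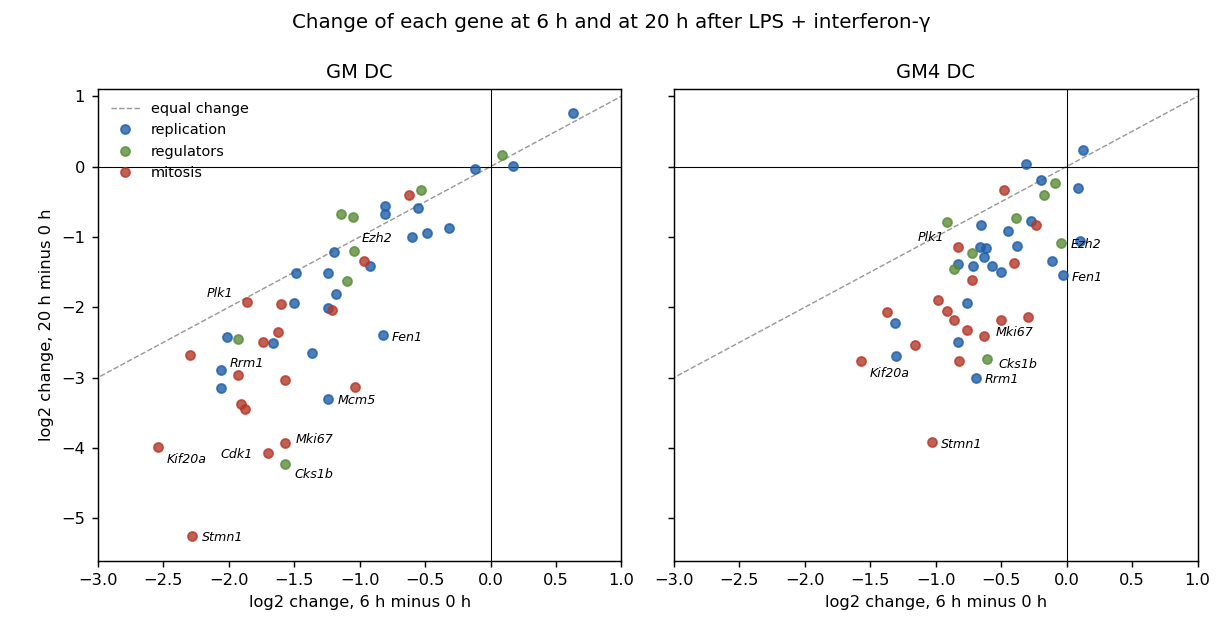
Log2 change of each of the 48 genes at 6 h (horizontal) and at 20 h (vertical) against 0 h, in GM and GM4 DC, coloured by group; the dashed line marks equal change. Most genes lie below the line, with Stmn1 at the bottom of both panels on this scale, at -5.25 in GM and -3.92 in GM4 DC at 20 h.

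Most helicase and origin licensing genes fell with time in both DC types. Mcm2 to Mcm7 encode the subunits of the MCM ring, Cdc6 helps to load it and Cdc45 is part of the active helicase. Mcm5 had signals of 461, 426 and 203 at 0 h, 137 and 135 at 6 h, then 18.2 and 22.9 at 20 h in GM DC. In GM4 DC they were 394, 328 and 204 at 0 h, 139, 158 and 187 at 6 h, then 28.6 and 54.0 at 20 h. Within each DC type all 20 h signals were below all 6 h signals, and these below all 0 h signals. The log2 change at 20 h was -3.30 ± 0.32 in GM (adjusted p = 3.54e-06) and -2.49 ± 0.32 in GM4 DC (adjusted p = 8.83e-05).

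Mcm3 followed the same course, with 449, 709.9 and 636 at 0 h, 157 and 195 at 6 h, then 88.4 and 92.2 at 20 h in GM DC. Its GM4 signals were 409, 508 and 319 at 0 h, 195, 245 and 263 at 6 h, then 89.1 and 99.2 at 20 h. The change at 20 h was -2.51 ± 0.21 and -1.94 ± 0.21, with adjusted p = 1.04e-06 and 2.06e-05. Mcm7 changed by -2.64 ± 0.31 in GM DC (adjusted p = 2.06e-05) and -2.22 ± 0.31 in GM4 DC (adjusted p = 0.00018). Of the 8 genes 5 were lower at 20 h in GM DC and 6 in GM4 DC, 7 and 3 at 6 h. The range of change at 20 h was -3.30 to -0.04 in GM and -2.49 to 0.23 in GM4 DC. Mcm4 was lower at 20 h in both (-1.81 and -1.49), Mcm2 in GM DC (-1.42, and -0.83 in GM4 DC). Mcm6 had signals of 1.16 to 9.35 over all arrays, below the offset of 16, and was not called in any comparison.

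Cdc45 and Cdc6 were lower at 20 h in GM4 DC and not called in GM DC. Cdc45 had 104, 132 and 115 at 0 h, 47.7 and 74.3 at 6 h, then 63.8 and 85.1 at 20 h in GM DC, against 79.7, 72.0 and 64.4 at 0 h, 38.1, 59.0 and 60.4 at 6 h, then 27.4 and 21.4 at 20 h in GM4 DC. It was the only gene of the 48 called lower in GM4 than in GM DC at 20 h (log2 difference -1.16 ± 0.24, adjusted p = 0.0144), and the call was lost in 5 of 24 alternative settings. In GM DC its 20 h change was -0.56 ± 0.22 and not called, in GM4 DC -1.12 ± 0.22 (adjusted p = 0.00238), and the difference of these responses was -0.56 ± 0.31 and not called. Cdc6 changed by -1.15 ± 0.24 in GM4 DC (adjusted p = 0.00323) and by -0.67 ± 0.24 in GM DC.

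Of 4 genes that supply nucleotides 3 were lower at 20 h in each DC type. Rrm1 and Rrm2 encode the subunits of ribonucleotide reductase, which makes deoxynucleotides, Tk1 is thymidine kinase and Dut removes dUTP. Rrm2 had signals of 273, 329 and 344 at 0 h, 52.2 and 75.8 at 6 h, then 19.2 and 23.1 at 20 h in GM DC. The GM4 arrays gave 220.5, 266 and 142 at 0 h, 69.5, 78.4 and 71.1 at 6 h, then 22.9 and 13.7 at 20 h. The groups at the 3 times did not overlap in either DC type, and at 20 h Rrm2 had changed by -3.15 ± 0.23 in GM (adjusted p = 3.21e-07) and -2.69 ± 0.23 in GM4 DC (adjusted p = 2.39e-06).

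Rrm1 had 225, 200.1 and 179 at 0 h, 16.2 and 67.8 at 6 h, then 20.4 and 7.30 at 20 h in GM DC, against 182, 191 and 135 at 0 h, 62.9, 114 and 126 at 6 h, then 7.36 and 6.38 at 20 h in GM4 DC. It had changed by -2.06 ± 0.36 at 6 h in GM DC (adjusted p = 0.000673) and by -0.69 ± 0.32 in GM4 DC, which was not called, and both DC types were at or below 20.4 by 20 h. Tk1 had 211, 209 and 215 at 0 h, 29.9 and 53.6 at 6 h, then 27.9 and 25.0 at 20 h in GM DC, against 120.2, 167 and 108 at 0 h, 60.8, 77.3 and 99.7 at 6 h, then 14.6 and 100.1 at 20 h in GM4 DC. The 20 h GM4 arrays lay far apart, one the lowest of all and the other above every 6 h array of that type. Its change at 20 h was -2.43 ± 0.40 (adjusted p = 0.000379) and -1.29 ± 0.40 (adjusted p = 0.0361). Dut had signals of 6.00 to 76.4 and overlapping groups and was not called in any comparison.

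Polymerase, primase and clamp genes had a median change of -1.21 in GM and -1.16 in GM4 DC at 20 h, with 6 of 7 lower in each. Pcna is the clamp that holds polymerases on DNA, Prim1 and Prim2 form primase, Pola1 and Pola2 belong to the polymerase that starts new strands, and Pold1 and Pold2 to the one that extends the lagging strand. Pcna had 1083, 1127 and 1365 at 0 h, 554 and 1087 at 6 h, then 649 and 527 at 20 h in GM DC, against 848, 1017 and 666 at 0 h, 546, 791 and 746 at 6 h, then 532 and 434 at 20 h in GM4 DC. The 20 h change was -0.9995 ± 0.26 (adjusted p = 0.00891) and -0.77 ± 0.26 (adjusted p = 0.0456), and 1 of 2 GM arrays at 6 h was still at the level of 0 h. Pola1 had 95.3, 85.6 and 77.2 at 0 h, 21.8 and 33.1 at 6 h, then 14.0 and 5.14 at 20 h in GM DC, against 56.5, 68.7 and 38.7 at 0 h, 26.1, 32.7 and 34.0 at 6 h, then 15.2 and 6.03 at 20 h in GM4 DC, with 20 h changes of -2.02 ± 0.25 and -1.41 ± 0.25 (adjusted p = 3.12e-05 and 0.00112). Pold1 changed by -1.94 ± 0.29 and -1.38 ± 0.29 (adjusted p = 0.000134 and 0.00315).

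Primase was brighter in GM4 than in GM DC at 6 h for 1 subunit. Prim2 had 41.8, 44.5 and 24.3 at 0 h, 6.50 and 5.60 at 6 h, then 1.75 and 2.83 at 20 h in GM DC, against 38.6, 39.7 and 22.1 at 0 h, 24.6, 28.6 and 34.9 at 6 h, then 3.93 and 2.40 at 20 h in GM4 DC. The 6 h arrays of the 2 DC types did not overlap, and the difference was 1.04 ± 0.22 (adjusted p = 0.00749). Prim1 was lower at 20 h in both DC types (-1.21 and -1.16), had 4.05 and 1.33 in GM and 18.02, 5.79 and 9.10 in GM4 DC at 6 h, and was not called there (0.51 ± 0.19). Pola2 was lower at 20 h in GM DC (-0.59, and -0.30 in GM4 DC).

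Pold2 was the only gene of the 48 called higher in GM4 than in GM DC at 0 h. Its probe set gave 44.2, 54.8 and 41.3 at 0 h, 45.9 and 64.0 at 6 h, then 35.5 and 60.2 at 20 h in GM DC, against 137, 125 and 56.0 at 0 h, 122, 125 and 81.8 at 6 h, then 37.0 and 41.7 at 20 h in GM4 DC. The 0 h arrays did not overlap, although GM4 replicate 3, at 56.0, was close to the brightest GM array, at 54.8. The difference was 0.89 ± 0.27 (adjusted p = 0.0451) and was lost in 14 of 24 alternative settings. In GM4 DC Pold2 fell by 20 h (-1.06 ± 0.31, adjusted p = 0.0235), and in GM DC its change was 0.00 ± 0.31.

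Genes for single-strand binding and fragment joining fell too, 4 of 4 in GM and 3 of 4 in GM4 DC at 20 h. Rpa1 and Rpa2 are subunits of replication protein A, Fen1 trims the flaps of Okazaki fragments and Lig1 seals them. Rpa1 had 325, 275 and 333 at 0 h, 104 and 96.6 at 6 h, then 98.9 and 98.5 at 20 h in GM DC, against 321, 345 and 225 at 0 h, 144, 188 and 187 at 6 h, then 103 and 96.0 at 20 h in GM4 DC. In GM DC the 6 h arrays were already level with the 20 h arrays (-1.49 ± 0.18, adjusted p = 3.16e-05, and -1.51 ± 0.18 at 20 h), while in GM4 DC the change was -0.72 ± 0.16 at 6 h and -1.42 ± 0.18 at 20 h (adjusted p = 0.00636 and 6.62e-05). At 6 h Rpa1 was higher in GM4 than in GM DC by 0.69 ± 0.18 (adjusted p = 0.0217), without overlap of arrays.

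Fen1 fell late. It had 181, 176 and 139 at 0 h, 88.7 and 83.7 at 6 h, then 14.6 and 22.3 at 20 h in GM DC, against 169, 166 and 101 at 0 h, 107, 142 and 177 at 6 h, then 36.6 and 39.9 at 20 h in GM4 DC, and the GM4 arrays at 6 h overlapped those at 0 h. The 20 h change was -2.40 ± 0.24 (adjusted p = 3.62e-06) and -1.54 ± 0.24 (adjusted p = 0.000321), of which 34.2% in GM and 1.77% in GM4 DC was present at 6 h. Lig1 was lower at 20 h in GM DC (-0.94 ± 0.22, adjusted p = 0.00449) and was not called in GM4 DC (-0.19 ± 0.22). Rpa2 was lower at 20 h in both (-0.88 and -0.91).

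Among the regulators, Cks1b and Ezh2 separated the DC types. Cks1b is a small subunit of cyclin-dependent kinases that takes part in the removal of the inhibitor p27. It had 338, 483 and 396 at 0 h, 96.7 and 159.7 at 6 h, then 4.85 and 7.83 at 20 h in GM DC. GM4 DC gave 358, 426 and 265 at 0 h, 214, 228 and 219 at 6 h, then 40.1 and 35.9 at 20 h. At 6 h and at 20 h every GM4 array was above every GM array, and by 20 h Cks1b had changed by -4.23 ± 0.22 in GM (adjusted p = 1.28e-08) and -2.73 ± 0.22 in GM4 DC (adjusted p = 1.09e-06). Its GM signals at 20 h lie below 16, where the offset sets the size of the log2 change.

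The GM4 minus GM difference of Cks1b was -0.22 ± 0.20 at 0 h, 0.75 ± 0.22 at 6 h (adjusted p = 0.0418) and 1.28 ± 0.24 at 20 h (adjusted p = 0.00713). Its 20 h responses differed by 1.49 ± 0.31 (limma, adjusted p = 0.0327), and it was the only gene of the 48 for which they did, beside 0.555% of all probe sets with a higher and 0.708% with a lower response in GM4 DC. That call was lost in 10 of 24 alternative settings, with a range of 1.31 to 2.66.

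Ezh2, the methyltransferase of Polycomb complex PRC2 and a known E2F target, had 232, 279.9 and 288 at 0 h, 108 and 134 at 6 h, then 109 and 105 at 20 h in GM DC. In GM4 DC it had 300.0, 248 and 261 at 0 h, 229, 284 and 274 at 6 h, then 126 and 111 at 20 h. At 6 h the GM arrays overlapped those of 20 h, and the GM4 arrays overlapped those of 0 h. The change at 6 h was -1.04 ± 0.15 in GM (adjusted p = 0.000157) and -0.04 ± 0.13 in GM4 DC, the difference between DC types 1.02 ± 0.15 (adjusted p = 0.000651), and at 20 h both had changed, by -1.19 ± 0.15 and -1.08 ± 0.15 (adjusted p = 3.37e-05 and 0.000155). The 6 h responses differed by 1.00 ± 0.20 (adjusted p = 0.0288), the only such call among the 48 genes, beside 0.443% of all probe sets with a higher and 0.515% with a lower response in GM4 DC. The call was lost in 10 of 24 settings, with a range of 0.81 to 1.14.

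The cyclins and kinases between the phases differed among themselves. Ccna2, the cyclin of S phase and G2, had 457, 623 and 538 at 0 h, 100.2 and 164 at 6 h, then 46.3 and 149 at 20 h in GM DC, against 296, 363 and 224 at 0 h, 131, 160.0 and 166 at 6 h, then 70.3 and 127 at 20 h in GM4 DC, with 20 h changes of -2.45 ± 0.35 and -1.46 ± 0.35 (adjusted p = 9.84e-05 and 0.00806). Cdk4, the partner of D-type cyclins, fell at 6 h in both (-1.15 ± 0.17 and -0.91 ± 0.15) and stood at -0.68 ± 0.17 and -0.78 ± 0.17 from 0 h by 20 h. A dimmer probe set of Cdk4 (mean signal 63.4) was instead lower at 20 h than at 6 h. It had -1.09 and -1.40 in GM and -0.45 and -0.93 in GM4 DC at 6 and 20 h. Chek1, a kinase of the DNA damage checkpoint, changed by -1.62 ± 0.21 and -1.23 ± 0.21, and Cdk2 by -0.71 ± 0.17 and -0.73 ± 0.17 (all of these 20 h changes called). Ccne1, the cyclin that acts at the start of S phase, had signals of 116 to 232 and was not called in any comparison. Ccne2 had signals of 0.781 to 11.7, below the offset, with means of 9.80 at 0 h and 1.87 at 6 h in GM DC. Dim as it was, it is one of the 40 genes called lower at 6 h in GM DC.

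**Figure D4:**
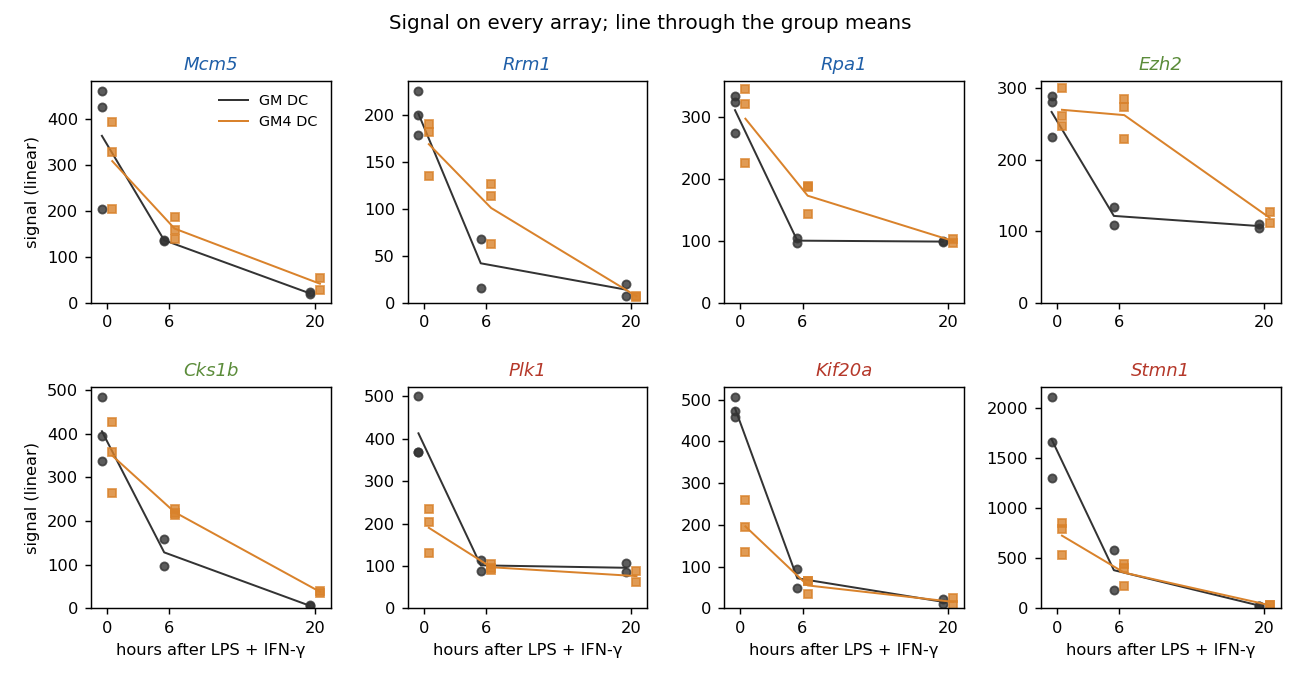
Signal on every array for Mcm5, Rrm1 and Rpa1 (replication, blue titles), Ezh2 and Cks1b (regulators, green) and Plk1, Kif20a and Stmn1 (mitosis, red) against hours after stimulation, in GM (black) and GM4 DC (orange); lines join group means. Ezh2 is at 108 and 134 in GM and at 229 to 284 in GM4 DC at 6 h, and Kif20a starts at 459 to 506 in GM and 136 to 259 in GM4 DC.

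The genes called lower in GM4 than in GM DC at 0 h were mostly of mitosis across settings. Of 48 genes 9 were lower in GM4 than in GM DC and 1 higher, beside 7.12% and 6.86% of all probe sets. All 9 lower genes were among the 17 of mitosis, and 0 of the 23 replication genes and 0 of the 8 regulators were lower, or 6 and 2 at an unadjusted limma p under 0.05. The median difference was -0.79 for mitosis, -0.22 for replication and -0.19 for regulators, and -0.06 over all probe sets. All 17 mitosis genes had a difference below 0, from -1.26 to -0.21. In 24 alternative settings between 2 and 10 mitosis genes were lower, and in 6 of them, the filter, the mean of all probe sets, the replicate block and one array left out (GM 0 h replicate 1, GM4 0 h replicate 2 or GM4 6 h replicate 1), 1 or 2 replication genes were lower too. The calls held unequally: over these settings Kif20a lost its call in 1, Plk1 in 2, Mki67 in 3, Birc5 in 4, Stmn1 in 7, Aurka and Mad2l1 in 15, Cdc20 in 17 and Bub1 in 20.

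The count of 10 called genes at 0 h moved with single arrays. Dropping replicate 1, 2 or 3 of GM at 0 h left 8, 2 and 3, and dropping replicate 1, 2 or 3 of GM4 left 5, 10 and 3. Through the shared spread it was also 5 without GM4 6 h replicate 2 and 6 without GM 6 h replicate 2 or either GM4 20 h array. Without GM4 0 h replicate 3 the median difference was -0.55 for mitosis and -0.10 for replication genes. RNA quality moved with the DC types: the Gapdh 3′/5′ ratio, which rises as RNA degrades, was 1.18 to 2.46 on the GM and 1.07 to 1.31 on the GM4 arrays at 0 h. With that quality as a covariate 2 genes were called, 1 of them among the 10, and the medians were -1.03 for mitosis and -0.41 for replication genes.

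Markers of other cells also moved with the DC type at 0 h. Of 16 DC genes 10 were higher in GM4 DC, with sums of 15698 to 21687 on GM and 26174 to 34611 on GM4 arrays. Of 12 progenitor genes 3 were higher in GM4 DC, Myb (1.65), Kit (1.43) and Cd34 (0.92), and the list summed to 643 to 837 on GM and 1115 to 1450 on GM4 arrays. Of 10 monocyte and macrophage genes 7 were lower, with sums of 13189 to 15998 and 4616 to 5166, while of 10 stromal genes 4 were lower and 1 higher, with sums of 1473 to 2206 and 685 to 1126. The 15 neutrophil and granule genes gave 3 higher and 3 lower, and sums of 9839 to 10026 and 9984 to 15595. The lists for T and NK cells (1 higher, 1 lower of 11), B cells (1 higher of 10), erythroid cells (1 lower of 7) and mast cells (1 higher, 1 lower of 9) had at most 1 call each way. The part of RNA quality or of these cells in the mitosis difference was not tested. The gradient also differed between the DC types (16% for GM and 14.5% for GM4 DC) and cannot be told apart from the cytokines.

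**Figure D5:**
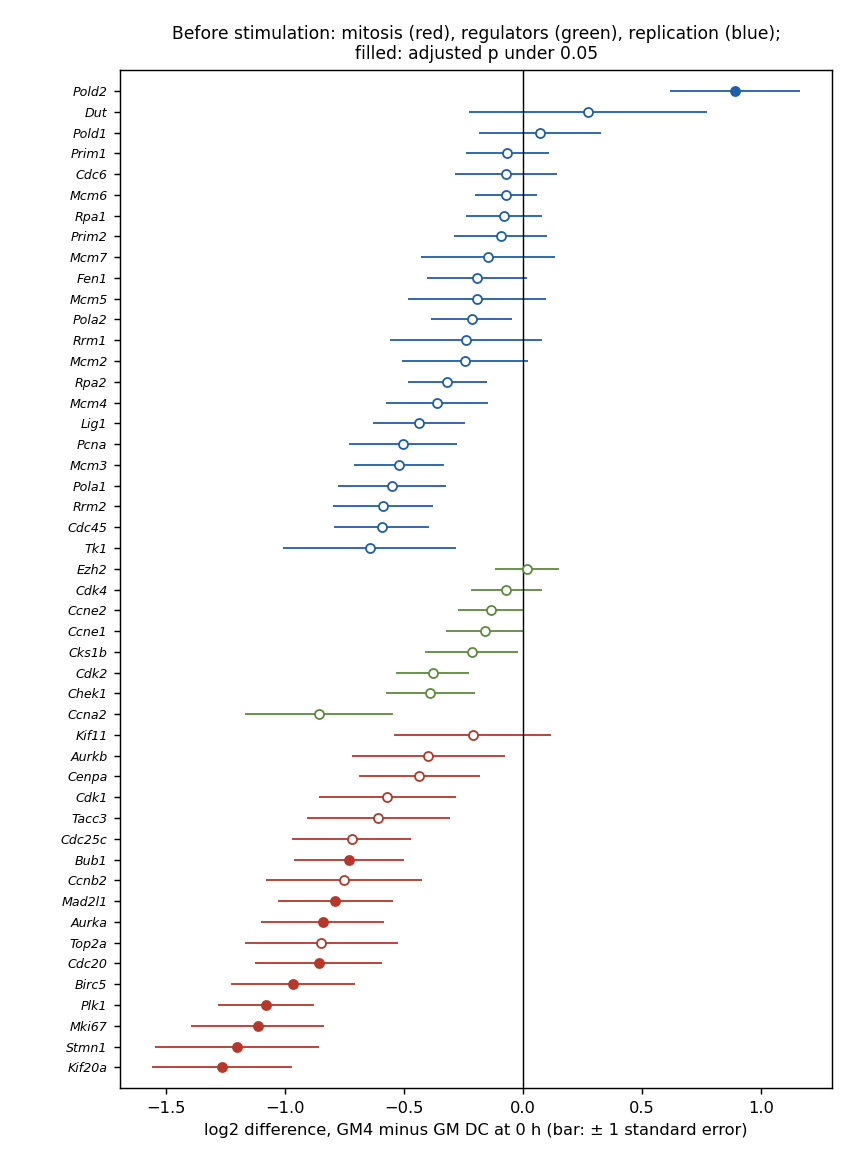
Log2 difference of GM4 minus GM DC at 0 h for the 48 genes, with bars of 1 standard error; filled points have an adjusted p under 0.05. All 17 mitosis genes (red) lie left of 0, Kif20a farthest at -1.26, and Pold2 (blue) is the only filled point on the right, at 0.89.

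Of 5 genes of entry into and exit from mitosis 2 were lower in GM4 DC at 0 h, and 5 were lower at 20 h in each DC type. Cdk1 with cyclin Ccnb2 drives mitosis, Cdc25c and Plk1 help to activate it, and Cdc20 directs the destruction of cyclin at its end. Plk1 had 368, 369.8 and 500.5 at 0 h, 89.1 and 114 at 6 h, then 85.4 and 106 at 20 h in GM DC. Its GM4 signals were 203, 235 and 132 at 0 h, 104, 95.6 and 91.6 at 6 h, then 63.3 and 88.9 at 20 h. The 0 h difference was -1.08 ± 0.20 (adjusted p = 0.00248), and the 6 h and 20 h arrays of the DC types overlapped. On this probe set most of the change was present at 6 h in both, -1.86 ± 0.22 of -1.93 ± 0.22 in GM and -0.83 ± 0.20 of -1.14 ± 0.22 in GM4 DC (adjusted p = 3.47e-05, 1.64e-05, 0.0108 and 0.00225). In GM4 DC a further probe set of Plk1 had -0.78 of -2.06 at 6 h, and another -1.18 of -1.83, so the share at 6 h there depends on the probe set.

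Cdc20 was lower in GM4 DC at 0 h (log2 difference -0.86 ± 0.27, adjusted p = 0.0462), with 395, 467 and 340.2 in GM and 265, 245 and 146 in GM4 DC, without overlap. By 20 h it had reached 39.8 and 59.0 in GM and 25.6 and 54.9 in GM4 DC. Cdk1 had 273, 389 and 337 at 0 h, 54.7 and 143 at 6 h, then 3.74 and 5.54 at 20 h in GM DC, against 237, 263 and 163 at 0 h, 80.8, 149 and 146 at 6 h, then 30.7 and 29.9 at 20 h in GM4 DC. At 20 h the GM arrays were lower, without overlap. The changes from 0 h were -4.07 ± 0.32 (adjusted p = 5.7e-07, with 20 h signals below the offset of 16) and -2.33 ± 0.32 (adjusted p = 0.000144), and their difference of 1.74 ± 0.45 was not called (adjusted p = 0.0912). Ccnb2 had 1057, 1286 and 669 at 0 h, 157 and 385 at 6 h, then 81.8 and 75.4 at 20 h in GM DC, against 683, 655 and 411 at 0 h, 169.9, 295 and 297 at 6 h, then 65.5 and 108 at 20 h in GM4 DC, with changes of -3.38 ± 0.37 and -2.54 ± 0.37 by 20 h (adjusted p = 8.98e-06 and 0.000208). Cdc25c changed by -1.35 ± 0.28 and -0.83 ± 0.28.

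Spindle checkpoint and Aurora kinase genes held 4 of the 9 calls at 0 h. Bub1 and Mad2l1 hold back chromosome separation until the spindle is attached, Aurka acts at the spindle poles, and Aurkb with Birc5 (survivin) corrects attachments. All 5 were lower at 20 h in each DC type. Birc5 had 241, 261 and 248 at 0 h, 48.4 and 109 at 6 h, then 14.5 and 18.8 at 20 h in GM DC, against 134, 156 and 81.2 at 0 h, 70.3, 108 and 111 at 6 h, then 12.3 and 17.8 at 20 h in GM4 DC. The 0 h groups did not overlap (-0.97 ± 0.26, adjusted p = 0.0246), GM DC fell by 6 h (-1.57 ± 0.29, adjusted p = 0.00119), with 51.7% of the 20 h change present then, GM4 DC had 13.8% of it at 6 h and fell between 6 and 20 h (-1.84 ± 0.29, adjusted p = 0.000968), and the 2 types overlapped at 20 h.

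Aurka gave 173, 225 and 215 at 0 h, 35.0 and 48.9 at 6 h, then 10.5 and 14.2 at 20 h in GM DC, against 102, 143 and 81.9 at 0 h, 24.7, 60.1 and 60.6 at 6 h, then 14.0 and 19.7 at 20 h in GM4 DC. It differed by -0.84 ± 0.26 at 0 h (adjusted p = 0.0445) and had changed by -2.96 ± 0.29 and -1.90 ± 0.29 at 20 h (adjusted p = 3.53e-06 and 0.000311). Mad2l1 had 303, 514 and 448 at 0 h, 147 and 253 at 6 h, then 35.6 and 29.9 at 20 h in GM DC, against 239, 286 and 182 at 0 h, 123, 193 and 169 at 6 h, then 32.2 and 46.3 at 20 h in GM4 DC, so that most of its fall came after 6 h, with -2.11 ± 0.30 in GM and -1.67 ± 0.27 in GM4 DC between 6 and 20 h (adjusted p = 0.000272 and 0.00111). Bub1 was lower in GM4 DC at 0 h (log2 difference -0.73 ± 0.23, adjusted p = 0.0493) and Mad2l1 too (-0.79 ± 0.24, adjusted p = 0.0452), while Aurkb, at -0.40 ± 0.32, was not called. By 20 h Bub1 had changed by -2.36 and -2.05, and Aurkb by -2.49 and -2.18.

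Of 7 genes of chromosomes, spindle and cytokinesis 6 were lower at 20 h in each DC type. Stmn1 (stathmin) takes microtubules apart, Kif20a is a kinesin of cytokinesis, Mki67 (Ki-67) coats mitotic chromosomes and marks dividing cells, Top2a untangles DNA, Kif11 spreads the spindle poles and Tacc3 strengthens the spindle. Stmn1 had 1299, 2105 and 1657 at 0 h, 184 and 578 at 6 h, then 28.5 and 27.6 at 20 h in GM DC. On the GM4 arrays it had 789.9, 854 and 533 at 0 h, 219.7, 406 and 443 at 6 h, then 35.0 and 29.5 at 20 h. GM DC started higher without overlap (-1.20 ± 0.34 for GM4 minus GM, adjusted p = 0.0326), and by 20 h the arrays of both were between 27.6 and 35.0. The changes were -5.25 ± 0.38 (adjusted p = 2.77e-07) and -3.92 ± 0.38 (adjusted p = 7.03e-06).

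Kif20a had 473, 506 and 459 at 0 h, 49.3 and 95.0 at 6 h, then 22.2 and 9.48 at 20 h in GM DC, against 259, 195 and 136 at 0 h, 34.7, 65.2 and 65.3 at 6 h, then 24.2 and 7.09 at 20 h in GM4 DC. The 0 h arrays did not overlap (-1.26 ± 0.29, adjusted p = 0.0103), the 6 h arrays did (-0.29 ± 0.33, not called), and the changes at 20 h were -3.99 ± 0.33 and -2.76 ± 0.33 (adjusted p = 8.09e-07 and 4.25e-05). Mki67 had 476, 598 and 491 at 0 h, 119.5 and 224 at 6 h, then 13.1 and 26.5 at 20 h in GM DC, against 233, 346 and 152 at 0 h, 109.9, 185 and 146 at 6 h, then 31.8 and 29.0 at 20 h in GM4 DC. It was lower in GM4 DC at 0 h (-1.11 ± 0.28, adjusted p = 0.0165), without overlap, and by 20 h had changed by -3.93 ± 0.31 in GM (adjusted p = 6.21e-07) and -2.42 ± 0.31 in GM4 DC (adjusted p = 8.89e-05). A dimmer probe set of Mki67, described last, went the other way.

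Top2a, at 206, 239 and 178 at 0 h, 27.2 and 68.9 at 6 h, then 2.02 and 7.02 at 20 h in GM DC, against 146, 146 and 56.3 at 0 h, 38.1, 65.2 and 62.1 at 6 h, then 1.92 and 2.40 at 20 h in GM4 DC, changed by -3.45 ± 0.36 and -2.77 ± 0.36 at 20 h (adjusted p = 6.43e-06 and 9.13e-05). Its 0 h difference of -0.85 ± 0.32 was not called although the arrays did not overlap. Kif11 (-1.96 and -1.62) and Tacc3 (-2.04 and -1.37) were lower at 20 h in both DC types and not called at 0 h (-0.21 ± 0.33 and -0.61 ± 0.30). Cenpa, the histone variant of centromeres, had signals of 42.3 to 170 and was the only mitosis gene not called in any comparison.

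After stimulation few of the 48 genes were called between the DC types, at shares near those of all probe sets. At 6 h, 4 of 48 genes were higher and 0 lower in GM4 than in GM DC (6.39% and 4.74% of all probe sets), with 10 and 1 at an unadjusted limma p under 0.05. They were Prim2, Rpa1, Cks1b and Ezh2, and 0 of the 17 mitosis genes were called, nor any at an unadjusted limma p under 0.05. At 20 h 1 was higher, Cks1b, and 1 lower, Cdc45 (3.14% and 1.56% of all), with 3 and 2 unadjusted. The median difference of the mitosis genes was 0.05 at 6 h and -0.03 at 20 h, and of the replication genes 0.21 and 0.05, where that of all probe sets was -0.04 at both times. In 24 alternative settings 1 mitosis gene was called higher at 20 h in 7, and 1 lower at 6 h and 1 lower at 20 h with the RNA quality covariate. The 6 h count was 1 without GM 6 h replicate 1 and 2 without GM4 6 h replicate 2 or 3, and the 20 h count was 1 without GM 20 h replicate 1 or either GM4 20 h array. Of the 10 monocyte and macrophage genes 9 were lower in GM4 DC at 6 h and 3 at 20 h, and of the 12 progenitor genes 3 were higher at 6 h, and their part in these calls was not tested.

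The responses themselves were compared by the difference of the changes from 0 h. All 17 mitosis genes had a smaller fall in GM4 DC in the values, at 6 h (0.14 to 1.27) and at 20 h (0.07 to 1.74), and 0 were called. At an unadjusted limma p under 0.05, 9 and 8 were higher, without a share of all probe sets to set beside them. Of the 23 replication genes 20 were above 0 at 6 h and 17 at 20 h, with 0 called at either time. These differences share the 0 h arrays with the 0 h comparison and with each other. At 20 h the mitosis means of the DC types overlapped, at 5.21 to 5.31 in GM and 5.18 to 5.39 in GM4 DC. At that time 8 of the 17 mitosis genes in GM and 7 in GM4 DC had a mean signal below 16. Some single mitosis genes were still apart then. All GM arrays lay below the GM4 arrays for Cdk1, Mki67 and Stmn1, and above them for Bub1 and Cenpa. What share of the unequal fall goes back to the unequal start was not tested. The calls were Ezh2 at 6 h and Cks1b at 20 h. The 6 h count was 0 when replicate 2 of GM at 0 h, replicate 1 of GM at 6 h, or replicate 2 or 3 of GM4 at either time was dropped, 2 when replicate 3 of GM at 0 h was, and 5 when replicate 2 of GM at 6 h was. The 20 h count was 0 when one of these was dropped: replicate 2 of GM at 0 h, either GM array at 20 h, replicate 1 or 3 of GM4 at 0 h, or replicate 2 of GM4 at 6 or 20 h. It was 2 when either GM array at 6 h was.

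Markers of other cells and of DC themselves also moved over these hours. Of the 16 DC genes 4 rose and 1 fell by 20 h in GM DC and 2 and 2 in GM4 DC, and Itgax fell in both (-2.42 and -2.17). Of the 10 monocyte and macrophage genes 4 rose and 4 fell in GM DC and 4 and 3 in GM4 DC, with sums of 15251 to 16259 and 8768 to 9022 at 20 h. Mrc1 (-4.41 and -3.69) and Ccr2 (-3.93 and -3.94) fell, and Marco (4.61 and 4.48) and Adgre1 (2.51 and 3.54) rose. The progenitor list summed to 461 to 552 in GM and 466 to 523 in GM4 DC at 20 h, with 2 of 12 genes lower and 1 higher than at 0 h in GM and 6 lower in GM4 DC. Myb, a transcription factor of progenitors, was lower at 20 h in both (-1.59 and -2.99), and Kit in GM4 DC (-1.13). The neutrophil and granule list summed to 4424 to 5573 and 4034 to 4069 at 20 h, with 7 of 15 genes lower and 3 higher in GM DC and 9 lower and 3 higher in GM4 DC. The part of these cells in the fall of the replication and mitosis genes was not tested.

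Further genes of the same processes also fell in part by 20 h. Of 39 other mitosis genes 12 were lower in GM4 DC at 0 h, 33 were lower at 20 h in GM and 24 in GM4 DC. Of all probe sets 7.12%, 16% and 12.3% were lower. The medians of the list were -0.66, -1.36 and -0.88 beside -0.06, 0.01 and 0.04 over all probe sets. Kifc1, a kinesin of the spindle, differed by -1.78 ± 0.42 at 0 h, Anln, the scaffold anillin of cytokinesis, by -1.39 ± 0.28 and Cdkn3, a phosphatase that acts on cyclin-dependent kinases, by -1.25 ± 0.25. By 20 h in GM DC the condensin subunit Smc2 had changed by -3.40 ± 0.29, Anln by -3.24 ± 0.31 and the kinesin Kif22 by -3.24 ± 0.27. Pttg1 (securin), which guards the cohesion of sister chromatids, rose at 6 h in both DC types (0.95 ± 0.23 and 1.27 ± 0.20, adjusted p = 0.0069 and 0.000699) and was lower at 20 h than at 0 h in GM DC (-1.21 ± 0.23).

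Of 33 other replication genes 2 were lower in GM4 DC at 0 h, a share near the 7.12% of all probe sets. They were the clamp loader subunit Rfc1 (-0.58 ± 0.15) and the maintenance methyltransferase Dnmt1 (-0.56 ± 0.13), and the list had a median of -0.24. At 20 h 16 were lower in GM and 11 in GM4 DC, beside 16% and 12.3% of all probe sets, with medians of -0.55 and -0.39. Uhrf1, which brings Dnmt1 to newly copied DNA, changed by -2.75 ± 0.26 and -2.80 ± 0.26, and the chromatin assembly subunit Chaf1a by -2.31 ± 0.21 and -1.14 ± 0.21. Dck, a kinase that salvages deoxynucleosides, rose at 6 h in both (1.19 ± 0.26 and 1.18 ± 0.23). Dnmt1 had 217 ± 5.93 (SD, n = 2) in GM and 291 ± 52.8 (SD, n = 3) in GM4 DC at 6 h, and its 6 h responses differed by 0.94 ± 0.20 (adjusted p = 0.042). Pold4, a small subunit of the lagging-strand polymerase, had 456 ± 4.71 (SD, n = 2) in GM and 278 ± 39.0 (SD, n = 2) in GM4 DC at 20 h, and its 20 h responses differed by -0.99 ± 0.22 (adjusted p = 0.0495).

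Inhibitors of cyclin-dependent kinases moved in both directions. Of 7 genes 2 rose and 1 fell by 20 h in each DC type, with medians of 0.35 and 0.22, and 2 were higher in GM4 DC at 0 h (median 0.30). Cdkn1a (p21) rose from 507 ± 58.8 (SD, n = 3) to 1407 ± 83.1 (SD, n = 2) in GM DC (1.45 ± 0.19, adjusted p = 5.82e-05) and by 0.59 ± 0.19 in GM4 DC (adjusted p = 0.0436). Cdkn2b (p15) was higher in GM4 than in GM DC at all times, with 316 ± 47.2 (SD, n = 3) against 58.9 ± 19.5 (SD, n = 3) at 0 h and differences of 2.18 ± 0.19, 1.72 ± 0.21 and 1.96 ± 0.23 (adjusted p = 1.18e-05, 0.000191 and 0.000412). Cdkn2c (p18) fell by 20 h in both (-0.79 ± 0.18 and -1.35 ± 0.18).

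Transcription factors that switch these genes were measured in part. Of 7 such genes 2 were lower and 2 higher in GM4 DC at 0 h (median -0.31), and 3 fell by 20 h in each DC type (medians -0.46 and -0.14). Among the higher was Myb (1.65 ± 0.23), which is also on the progenitor list. It fell by 20 h in both DC types (-1.59 ± 0.26 and -2.99 ± 0.26). Foxm1, a factor of mitosis genes, had 549 ± 46.2 (SD, n = 3) in GM and 246 ± 27.6 (SD, n = 3) in GM4 DC (-1.11 ± 0.12, adjusted p = 4.67e-05) and fell by 20 h in both (-1.03 ± 0.14 and -0.66 ± 0.14). It was lower in GM4 DC at 6 h and 20 h too (-0.57 ± 0.14 and -0.74 ± 0.15). E2f1 was lower in GM4 DC at 0 h (-1.01 ± 0.19, adjusted p = 0.00307), fell at 6 h in GM DC (-1.46 ± 0.22) and rose again between 6 and 20 h (0.99 ± 0.24). Tfdp1, the dimer partner of E2F factors, fell by 20 h in both (-1.60 ± 0.27 and -0.92 ± 0.27).

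Among 12 genes of G1 cyclins, retinoblastoma proteins and the MYC family, 4 rose and 4 fell by 20 h in GM DC, and 3 and 5 in GM4 DC (medians 0.06 and -0.18), and 3 were higher in GM4 DC at 0 h (median 0.16). Mxd1, which competes with Myc for their partner Max, rose from 2.02 to 3.36 at 0 h to 174 to 213 at 20 h in GM DC (3.50 ± 0.34), and was higher in GM4 DC at 0 h (1.68 ± 0.31). Myc fell in both DC types (-1.42 ± 0.23 and -1.24 ± 0.23), as did Mxd4 (-1.68 ± 0.16 and -1.57 ± 0.16). Ccnd2, a D-type cyclin of G1, rose at 6 h from 102 ± 26.0 (SD, n = 3) to 1039.8 ± 139 (SD, n = 2) in GM DC (3.17 ± 0.26, adjusted p = 9.14e-07) and by 1.68 ± 0.23 in GM4 DC, while Ccnd1 fell in GM DC (-1.05 ± 0.27).

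For 15 of the 48 genes 17 further probe sets were not used above. At 20 h 6 of them were lower and 1 higher in GM DC, and 5 lower and 1 higher in GM4 DC. The second probe set of Mcm3 changed by -3.21 in GM and -2.03 in GM4 DC at 20 h, those of Plk1 by -2.39 and -2.04 in GM DC, and that of Kif20a by -2.21. Further probe sets of Mcm5 (0.06 in GM and 0.52 in GM4 DC), Pold1 (-0.08 and 0.54) and Pola2 (0.39 and -0.75), with mean signals of 25.6, 38.4 and 36.3, were not called, so the probe sets of these genes disagree in GM DC. Those of Mcm5 and Pold1 disagree in GM4 DC too. Dimmer ones of Tk1 (0.01 in GM and 0.49 in GM4 DC) and Lig1 (-0.15 and -0.11), with mean signals of 14.8 and 16.4, were not called either. The other probe set of Mki67, with a mean signal of 43.4, went the other way and was higher at 20 h in both DC types (0.89 and 0.74), so the probe sets of Mki67 disagree. The other probe sets of Rrm1, Bub1 and Stmn1 had mean signals of 1.79 to 3.61.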

How the data were processed

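Total RNA of 15 samples was hybridised to Affymetrix arrays, 1 array per sample. The deposited values are linear intensity, 1 MAS5 signal per probe set and array per the submitters' processing notes, whose version and build are not given in the sources used here; each array's trimmed mean (2% off each end) was 150.1, so the arrays were on one scale. Groups came from the sample titles. The 66 control probe sets of 12488 were dropped, and 10833 of the 12422 tested had 1 gene symbol, 396 several and 1193 none in the platform annotation. Values were taken as log2(signal + 16), 6 group means were fitted to all arrays with limma 3.58.1 in R 4.3.3 (lmFit, eBayes with trend), and p-values were adjusted by Benjamini-Hochberg within each of 11 comparisons, with 9 residual and 4.76 prior degrees of freedom. The script was tested on simulated data. Dim signals are imprecise, and 2 or 3 arrays per group limit precision. Replicates are described as biological, but the labels do not tie arrays to cultures, so p-values measure the spread between these samples.

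Every gene of the set may be named. In each role group, array values are given for the gene with the highest mean signal and for up to 3 genes with the strongest called change each way and no overlap, and from the pathway lists up to 3 called genes each way. The genes and lists were chosen with earlier results of these data known. Alternatives were an offset of 1, quantile normalization, centring on medians, a 40th-percentile filter, averaging a gene's probe sets, a replicate block, an RNA quality covariate (Gapdh and actin 3′/5′ ratios), 2 doubted arrays left out (GM 0 h replicate 3, with the highest Gapdh ratio, and GM 6 h replicate 1, with the brightest hybridisation controls), a fit of the compared groups alone, and each array left out in turn (for the share of the fall present at 6 h, chosen after seeing the data).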

Additional observations from a re-analysis of the deposited data

Results flagged for a closer look

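The response to stimulation of 4 genes differed between the DC types by a limma test of the difference itself. Ezh2 (GM4 minus GM 1.00 on the log2 scale, SE 0.20, adjusted p = 0.0288) and the methyltransferase Dnmt1 (0.94, SE 0.20, adjusted p = 0.042) had the higher response in GM4 DC at 6 h. Cks1b had the higher response in GM4 DC at 20 h (1.49, SE 0.31, adjusted p = 0.0327), and the polymerase subunit Pold4 the lower one (-0.99, SE 0.22, adjusted p = 0.0495). A higher response is a less negative or more positive change from 0 h, which for Ezh2 and Cks1b was a smaller fall. Each was tested over all probe sets, and the comparisons share their 0 h arrays.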

How the results depend on the processing

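No called change of a gene of the set was reversed: 191 changes under up to 24 alternatives gave 4571 checks, of which 408 lost the call. Among the pathway genes 292 changes gave 6992 checks, with 667 calls lost and 0 reversed. Under an offset of 1 the 0 h count of 10 was 6 and the response count of 1 at 20 h was 2. With median centring these were 5 and 0, and the response count of 1 at 6 h was 0, as it was with quantile normalization. That centring moved the median of all probe sets from -0.01 to 0.11 at 6 h and from 0.01 to 0.13 at 20 h in GM DC. The filter at the 40th percentile gave 2 for the response at 20 h. With the RNA quality covariate the counts between DC types were 2 at 0 h, 2 at 6 h and 1 at 20 h, of which 1, 1 and 0 were calls of the fit without it. Without the 2 doubted arrays they were 6 at 0 h and 2 at 6 h, with 25 of 40 for GM DC at 6 h and 0 for the response at 6 h. A fit of the compared groups alone gave 2 at 6 h, 9 of 15 for GM DC from 6 to 20 h and 0 for the response at 6 h. The cause was not tested.

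With one array left out, counts between DC types were 2 to 10 at 0 h, 1 to 5 at 6 h and 1 to 3 at 20 h. For GM DC they were 26 to 41 (6 h), 38 to 41 (20 h) and 8 to 16 (6 to 20 h), and for GM4 DC 6 to 22, 32 to 42 and 14 to 24. The response counts were 0 to 5 at 6 h and 0 to 2 at 20 h. Same-numbered arrays deviated together by correlations of 0.0026 to 0.332 (median 0.10), and arrays of different number by -0.296 to 0.173 (median -0.076). All 33 same-numbered pairs were above 0, which hints at a shared deviation. The labels do not tie arrays to cultures, so the main fit did not take the numbers as pairs. The replicate block kept 190 of 191 calls and gave 3 for the response at 20 h. With it the 0 h count of 10 was 12. The GM4 count of 15 at 6 h was 21, and the GM count of 40 at 20 h was 43. The number of arrays limits the precision, and 8 of 17 mitosis genes had a mean signal below 16 in GM DC at 20 h.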
